A study of Mus musculus with 4 samples.

Results

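A set of 35 genes that mark the leukocytes of mouse skin were examined across NEDD8i and DMSO libraries. They were taken by gene name from the deposited table, and all 35 were found among its 56953 genes. The list holds 13 T cell markers, 6 Langerhans and dendritic cell markers, 8 macrophage markers, 2 mast cell markers, 4 genes shared by myeloid cells and 2 genes shared by all leukocytes. The tissue was dorsal skin of wild-type C57BL/6J mice. One group received NEDD8i on the skin at 10 µM for 3 days, given no other name in the labels; NEDD8 is a small ubiquitin-like modifier. The other received DMSO, the solvent, for the same time. The libraries, 2 a group, read the 3′ ends of polyadenylated RNA. Nothing in the labels says that these came from separate mice, so p-values measure only the spread between these libraries, which may be technical.

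Mouse epidermis houses resident immune cells of 2 main kinds. Dendritic epidermal T cells carry a gamma-delta T cell receptor that signals through the CD3 chains, and they settle among keratinocytes with the help of integrins and the cytokine IL-15. Langerhans cells are macrophage-related antigen-presenting cells that carry langerin, depend on signalling through the receptor CSF1R, and move to lymph nodes when activated. Dermal macrophages, dendritic cells and mast cells lie below the basement membrane.

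Total counts were 8833217 to 8856572 in NEDD8i libraries and 5639791 to 5955627 in DMSO libraries, of which 3 ribosomal RNA genes took 52.6% to 61.7%. The limit that a count of 0 allows, 3 counts, came to 0.360 to 0.543 CPM (a gene's reads as a share of the library, scaled with TMM factors). DMSO replicate 1 stood apart: 6 hair shaft genes held 125 and 3102 reads in NEDD8i replicates 1 and 2, against 38617 reads in DMSO replicate 1 and 100 in DMSO replicate 2, and 5 melanocyte genes held 374 and 388 reads in NEDD8i libraries against 2425 and 237 in DMSO libraries. In log2 CPM over the tested genes, the DMSO libraries correlated with each other at 0.870 and the NEDD8i libraries at 0.943. DMSO replicate 2 correlated more closely with NEDD8i replicates 1 and 2, at 0.886 and 0.887, than with DMSO replicate 1. The labels speak of full-thickness skin, and genes of cells that lie below the epidermis were represented unevenly. The 6 fibroblast genes summed to 238 and 534 reads in NEDD8i libraries and 383 and 36 reads in DMSO libraries, and 5 adipocyte genes to 56 and 29 reads in NEDD8i libraries and 500 and 4 reads in DMSO libraries. Reads of 5 endothelial genes summed to 5 and 19 reads in NEDD8i libraries and 3 and 2 reads in DMSO libraries, 6 B cell genes to 0 to 5 reads per library, and 3 eosinophil genes to 0 to 2, while 4 keratinocyte keratins summed to 32951 to 55928. Of the 4 keratinocyte, 3 melanocyte, 6 hair shaft and 1 adipocyte genes that could be tested 0 passed. Because bulk RNA was sequenced, fewer cells of a type and less RNA per cell cannot be told apart in any value below.

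NEDD8i skin was set against DMSO skin to see which leukocyte transcripts differ. In CPM, the Langerhans and macrophage markers Cd207, Cd86 and C1qa were higher in both NEDD8i libraries than in either DMSO library. Of the 13 tested Langerhans, shared myeloid and macrophage genes, 10 had positive log2 fold changes, against 49.9% of all tested genes. The 3 negative ones were Itgax, Csf1r and Fcer1g, and the untested Adgre1 overlapped between the groups. The T cell markers were level or lower. None of these differences passed the test. Of the 35 genes 24 had enough reads to be tested, and 0 rose and 0 fell past an adjusted p of 0.05, by the quasi-likelihood test of edgeR with Benjamini-Hochberg adjustment over 11388 genes. Over all genes tested, 76 (0.667%) were higher and 13 (0.114%) lower. At an unadjusted p under 0.05, 4 of the 24 were higher and 0 lower, against 8.62% of all tested genes higher and 7.86% lower. DESeq2 and limma-voom also called 0 members, with 4 at an unadjusted p under 0.05 in each.

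Both NEDD8i libraries lay above both DMSO libraries in CPM for 10 of the 24 tested genes (41.7%) and below both for 4 (16.7%), where the shares among all tested genes were 25% and 22.9%. The 10 were all Langerhans, shared myeloid or macrophage genes. The median log2 fold change of the 24 was -0.15, with 10 positive and 14 negative, beside -0.0031 over all tested genes. Tested genes reached that stage by having enough reads, so these shares describe the 24 and not the whole list. Groups without overlap were thus seen on both sides.

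**Figure D1:**
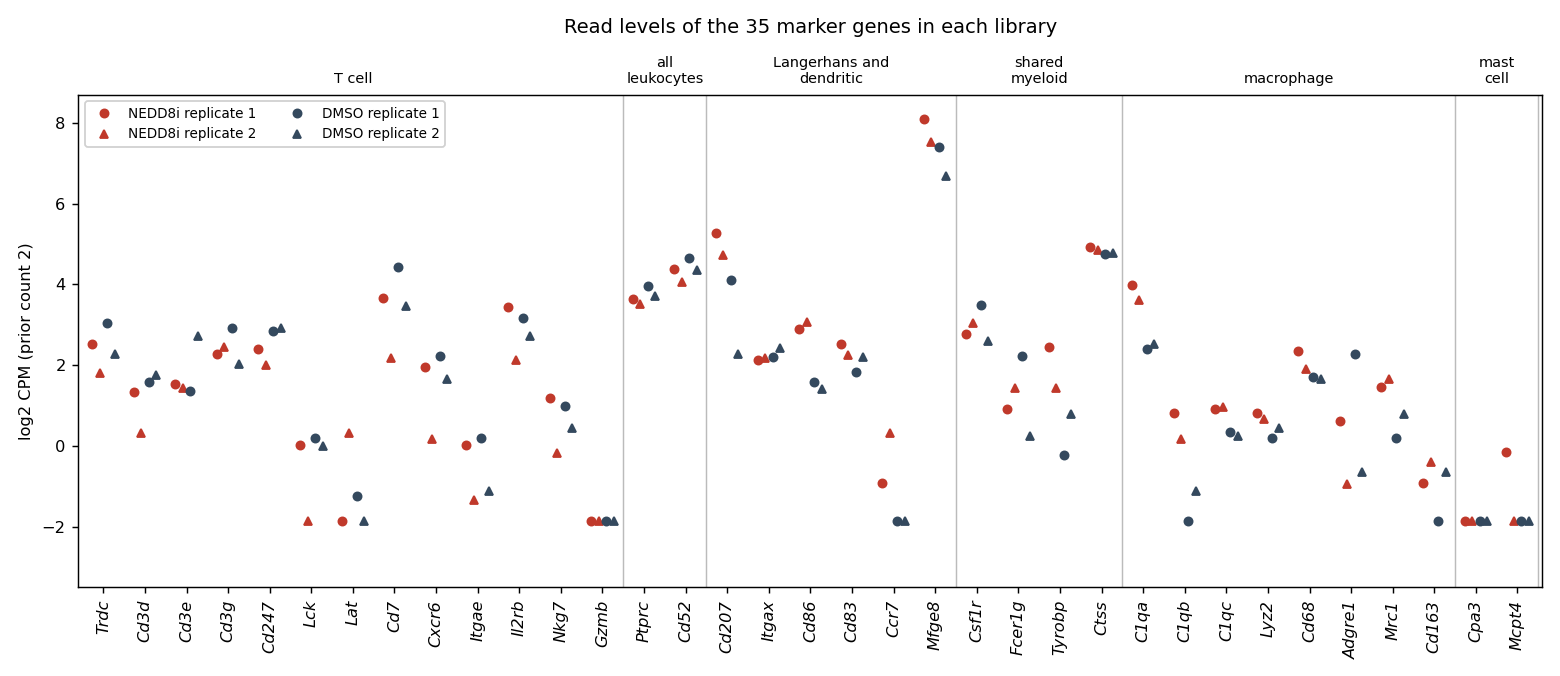
Read level of each of the 35 marker genes in the 4 libraries, as log2 CPM with a prior count of 2; red symbols are NEDD8i and dark symbols DMSO, circles replicate 1 and triangles replicate 2. Points at the bottom of the axis are libraries with 0 reads, and Cd207, Cd86 and C1qa show both red symbols above both dark ones.

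The T cell receptor genes came first in the list. Trdc, the constant region of the delta chain (ENSMUSG00000104876.2, chromosome 14, 54380308 to 54386325, plus strand, taken to be GRCm39), had 44 and 27 reads in NEDD8i replicates 1 and 2, against 56 and 25 reads in DMSO replicates 1 and 2. The groups overlapped, and the log2 fold change was -0.53 (SE 0.50; adjusted p = 0.661 by edgeR). The alpha chain constant region Trac had 0 reads in all 4 libraries, and the coreceptor genes Cd4 and Cd8a had at most 2 reads in any. The beta constant region Trbc2 was nevertheless present, with 51 and 84 reads in NEDD8i libraries and 65 and 73 reads in DMSO libraries, and shares near-identical sequence with Trbc1. Trac, Cd4, Cd8a and Trbc2 were picked with their values known.

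The CD3 chains carry the signal of that receptor into the cell. Cd3d had 18 and 8 reads in NEDD8i libraries against 19 and 17 reads in DMSO libraries. Cd3e had 21 and 20 reads in NEDD8i libraries and 16 and 35 reads in DMSO libraries, and Cd3g had 37 and 43 against 51 and 21 in the same order. Cd247, the zeta chain (chromosome 1, 165616250 to 165698722), had 40 and 31 reads in NEDD8i libraries, against 48 and 40 in DMSO libraries. In CPM, Cd3d and Cd247 lay below both DMSO libraries in both NEDD8i libraries, and Cd3e and Cd3g overlapped. For Cd247 this was 4.35 ± 0.88 CPM in NEDD8i skin and 7.05 ± 0.27 CPM in DMSO skin (SD, n = 2 each), which gave a fold change on the log2 scale of -0.70 (SE 0.43; adjusted p = 0.477 by edgeR). Cd247 overlaps Pou2f1 on the other strand, which had 67 to 112 reads, and the labels do not say whether reads were counted by strand.

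Lck, the kinase that starts signalling at CD3, had 6 and 0 reads in NEDD8i libraries and 6 and 4 reads in DMSO libraries, and was too low to test. Lat, the adaptor downstream of it, had 0 and 8 reads in NEDD8i libraries against 1 and 0 reads in DMSO libraries, all but 1 of them in NEDD8i replicate 2. A difference in either gene was not detectable at this depth.

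Surface and effector genes of resident T cells followed. Cd7, a glycoprotein of T and natural killer cells, had 99 and 35 reads in NEDD8i libraries and 150 and 59 reads in DMSO libraries. It had the smallest p of the T cell markers, with 8.25 ± 5.72 CPM in NEDD8i skin and 16.1 ± 7.60 CPM in DMSO skin (SD, n = 2 each) and a log2 fold change of -0.97 (SE 0.55; adjusted p = 0.430 by edgeR). The groups overlapped: NEDD8i replicate 1 was above DMSO replicate 2. Without DMSO replicate 2 the value was -1.36, and over the 4 fits that each leave out 1 library it ran from -1.91 to -0.39. Il2rb, the receptor chain for IL-15 and IL-2, had 85 and 34 reads in NEDD8i libraries against 61 and 35 in DMSO libraries (log2 fold change -0.05, SE 0.51; adjusted p = 0.976 by edgeR). Cxcr6, a chemokine receptor of tissue-resident T cells, had 29 and 7 reads in NEDD8i libraries and 31 and 16 reads in DMSO libraries. Both sets of Cxcr6 and Il2rb values overlapped, and Cxcr6 overlaps Fyco1 on the other strand.

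Nkg7, a granule protein of cytotoxic lymphocytes, had 16 and 5 reads in NEDD8i libraries and 12 and 6 reads in DMSO libraries. Itgae, the integrin chain that binds E-cadherin on keratinocytes, had 6 and 1 reads in both the NEDD8i and the DMSO libraries and was not tested. Gzmb, the cytotoxic protease granzyme B, had 0 reads in all 4 libraries, which allows up to 0.360 to 0.543 CPM. Granule genes thus had few or no reads in either group.

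All 9 tested T cell markers had a negative log2 fold change, from -0.97 to -0.05 with a median of -0.70, beside 5709 negative of 11388 genes over the table. The replicates of a group differed as well: 8 of the 9 were lower in CPM in NEDD8i replicate 2 than in NEDD8i replicate 1, and 6 of the 9 were lower in DMSO replicate 2 than in DMSO replicate 1. Summed over the 13 genes, CPM was 49.8 and 26.3 in NEDD8i replicates 1 and 2, and 65.3 and 46.9 in DMSO replicates 1 and 2, so the groups overlapped. The log2 ratio of these sums was -0.56 with all libraries and -1.09 without NEDD8i replicate 1, against -0.17 without NEDD8i replicate 2.

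The genes shared by all leukocytes gave a base for the others. Ptprc, the leukocyte phosphatase CD45 (chromosome 1, 137991145 to 138103044), had 98 and 92 reads in NEDD8i libraries and 107 and 71 reads in DMSO libraries. Its CPM was 11.6 ± 0.79 in NEDD8i skin and 14.1 ± 1.72 in DMSO skin (SD, n = 2 each), which gave a fold change on the log2 scale of -0.28 (SE 0.34; adjusted p = 0.745 by edgeR), with both NEDD8i libraries just below both DMSO libraries. Cd52, a small surface glycoprotein of leukocytes, had 165 and 136 reads in NEDD8i libraries against 175 and 112 in DMSO libraries (log2 fold change -0.30, SE 0.32; adjusted p = 0.699 by edgeR) and overlapped. Ptprc shares its strand and part of its span with A130071D04Rik, which had 34 and 37 reads in NEDD8i libraries and 5 and 21 reads in DMSO libraries, and the labels do not say how reads that fit both were counted.

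**Figure D2:**
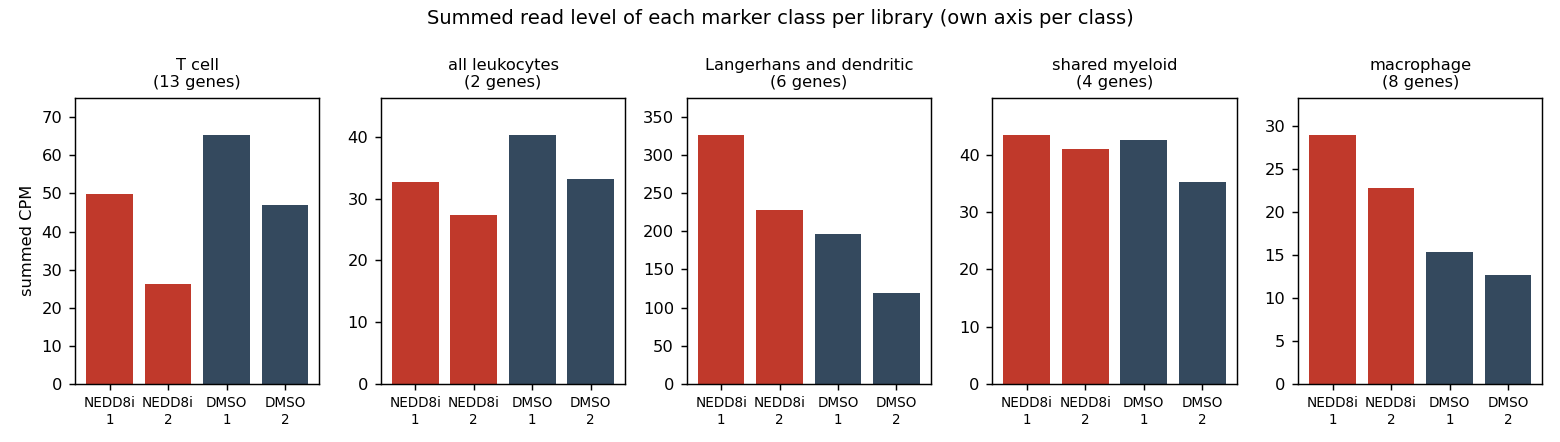
Summed CPM of each marker class in each library, red for NEDD8i and dark for DMSO, with an axis of its own for each class. NEDD8i libraries are above both DMSO libraries for Langerhans and dendritic genes and for macrophage genes, below both for the 2 genes of all leukocytes, and overlap DMSO for the T cell and shared myeloid genes.

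Among the Langerhans and dendritic cell markers, the groups did not overlap for any of the 5 that were tested, with 4 above and 1 below both DMSO libraries, where 25% of all tested genes lay above and 22.9% below. Cd207, which encodes langerin, the lectin of Birbeck granules (ENSMUSG00000034783.8, chromosome 6, 83648197 to 83654839, minus strand), had 310 and 217 reads in NEDD8i replicates 1 and 2, against 119 and 25 reads in DMSO replicates 1 and 2. The lower of the NEDD8i libraries, at 26.1 CPM, was above the higher of the DMSO libraries, at 17.0 CPM. Means were 32.3 ± 8.79 CPM in NEDD8i skin and 10.8 ± 8.82 CPM in DMSO skin (SD, n = 2 each), and the log2 fold change was 1.57 (SE 0.55; adjusted p = 0.209 by edgeR). The value turned on which DMSO library was kept: it was 2.82 without DMSO replicate 1 (adjusted p = 8.43e-08 by edgeR) and 0.94 without DMSO replicate 2, the library that held 25 reads. A fit with 1 library in a group measures no spread within it.

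Cd86, the costimulatory molecule that T cells read through CD28 (ENSMUSG00000022901.14, chromosome 16, 36424231 to 36486439, minus strand), had 58 and 68 reads in NEDD8i libraries and 19 and 13 reads in DMSO libraries. Libraries of a group were close, at 7.69 ± 0.68 CPM in NEDD8i skin and 2.53 ± 0.25 CPM in DMSO skin (SD, n = 2 each). The log2 fold change of 1.59 (SE 0.46) had the smallest p of the Langerhans and dendritic markers and missed the threshold (adjusted p = 0.141 by edgeR). Over the 4 fits that each leave out 1 library it stayed between 1.48 and 1.70.

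Cd83, a maturation marker of dendritic cells, had 44 and 37 reads in NEDD8i libraries against 23 and 24 in DMSO libraries, a log2 fold change of 0.38 (SE 0.48; adjusted p = 0.755 by edgeR). Ccr7, the receptor that leads activated dendritic cells to lymph nodes, had 2 and 8 reads in NEDD8i libraries and 0 in both DMSO libraries. That was about 2.55-fold higher after NEDD8i if the whole DMSO group is set at 3 counts, with no counting error on the NEDD8i reads. Ccr7 was too low to test. Itgax, the integrin chain CD11c of dendritic cells, had 33 and 35 reads in NEDD8i libraries and 30 and 28 reads in DMSO libraries. In CPM that was 4.15 ± 0.08 in NEDD8i skin and 4.68 ± 0.55 in DMSO skin (SD, n = 2 each), which gave a fold change on the log2 scale of -0.17 (SE 0.47; adjusted p = 0.899 by edgeR). Cd207 and Cd86 were thus higher in both NEDD8i libraries while Itgax, measured in the same libraries, was slightly lower.

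Mfge8, a secreted protein that bridges dying cells to phagocytes and is also made outside the immune system, had 2180 and 1535 reads in NEDD8i libraries against 1182 and 566 in DMSO libraries (log2 fold change 0.75, SE 0.36; adjusted p = 0.352 by edgeR). It held most of the reads of its class, so the class sum was also taken without it. Over the other 5 genes CPM was 55.5 and 43.8 in NEDD8i libraries and 27.3 and 16.3 in DMSO libraries, and the groups did not overlap either with or without Mfge8. Without DMSO replicate 1 the log2 fold change of Mfge8 was 1.14, and without DMSO replicate 2 it was 0.45.

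**Figure D3:**
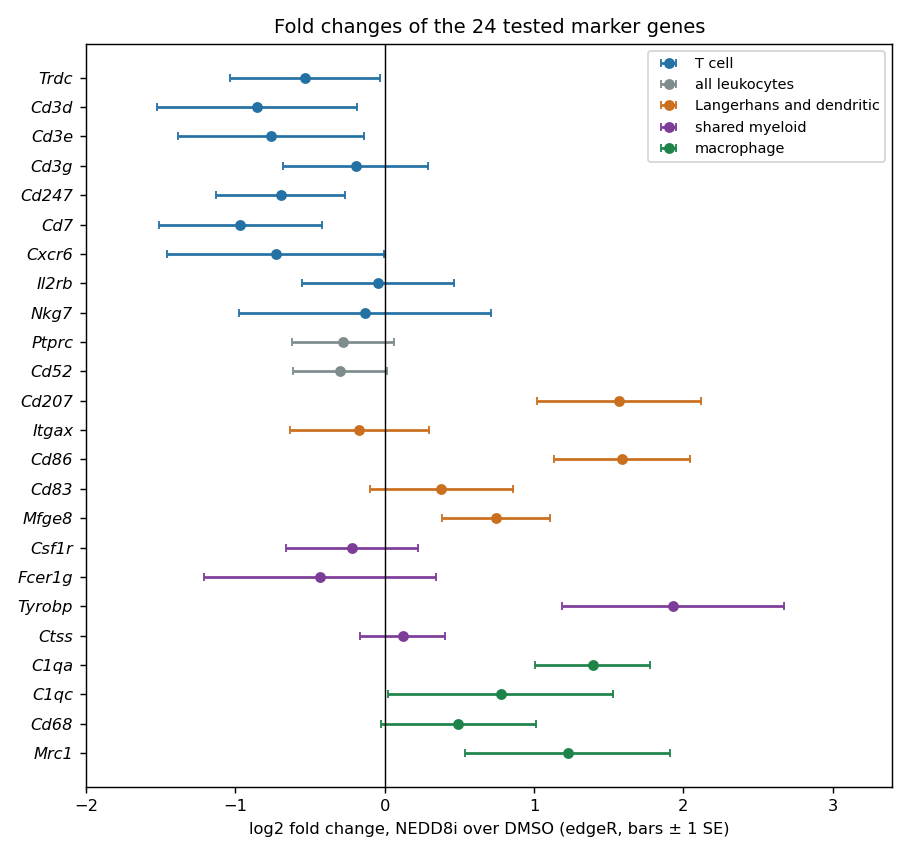
Log2 fold change, NEDD8i over DMSO, of each of the 24 tested marker genes from edgeR, with bars of 1 standard error either side, coloured by class. The 9 tested T cell markers lie left of 0 and the 4 tested macrophage markers right of it, and 0 of the 24 passed an adjusted p of 0.05. Markers that were not tested, among them Adgre1, are not shown.

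The genes shared by myeloid cells went different ways. Tyrobp, the adaptor DAP12 that signals for many activating receptors (ENSMUSG00000030579.11, chromosome 7, 30113213 to 30117002, plus strand), had 42 and 20 reads in NEDD8i libraries and 4 and 8 reads in DMSO libraries. This was the highest log2 fold change among the tested members, 1.93 (SE 0.74, adjusted p = 0.243 by edgeR), on few DMSO reads. The value was 1.37 without DMSO replicate 1 and 2.72 without DMSO replicate 2. Fcer1g, the related adaptor of Fc receptors, had 13 and 20 reads in NEDD8i libraries against 31 and 5 in DMSO libraries, a log2 fold change of -0.43 (SE 0.78; adjusted p = 0.838 by edgeR). Leaving out DMSO replicate 1 turned Fcer1g to 1.13, and leaving out DMSO replicate 2 gave -1.11.

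Csf1r, the receptor for CSF1 and IL-34 on which Langerhans cells depend, had 53 and 66 reads in NEDD8i libraries and 77 and 32 reads in DMSO libraries (log2 fold change -0.22, SE 0.44; adjusted p = 0.858 by edgeR); it overlaps Hmgxb3 on the other strand. Ctss, the lysosomal protease cathepsin S that trims the invariant chain, had 242 and 236 reads in NEDD8i libraries and 186 and 150 reads in DMSO libraries. Its CPM was close in all 4 libraries, 29.2 ± 1.20 in NEDD8i skin and 26.9 ± 0.41 in DMSO skin (SD, n = 2 each), and its log2 fold change was 0.12 (SE 0.28; adjusted p = 0.880 by edgeR). With library sizes not corrected by TMM, Ctss was at -0.10. Both genes thus stood nearer to 0 than Cd207 and Cd86 in the same libraries.

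The macrophage markers were led by complement C1q, whose 3 chains are encoded side by side on chromosome 4 and are made in skin chiefly by macrophages. C1qa (ENSMUSG00000036887.6, 136623228 to 136626114, minus strand) had 125 and 99 reads in NEDD8i libraries and 35 and 30 reads in DMSO libraries. Means were 13.7 ± 2.57 CPM in NEDD8i skin and 5.22 ± 0.30 CPM in DMSO skin (SD, n = 2 each). The log2 fold change of 1.39 (SE 0.38) had the smallest p of all 24 tested members, 486th among all tested genes, and did not pass (adjusted p = 0.131 by edgeR). It stayed between 1.20 and 1.56 over the 4 fits that leave out 1 library. C1qb (136607440 to 136613498) had 12 and 7 reads in NEDD8i libraries against 0 and 1 in DMSO libraries, 14.5 times as much, with counting alone allowing 2.31 to 603 at 95% confidence. C1qc (136617115 to 136620376) had 13 and 14 reads in NEDD8i libraries and 7 and 5 reads in DMSO libraries, a log2 fold change of 0.78 (SE 0.76; adjusted p = 0.671 by edgeR). For each of the 3 chains both NEDD8i libraries were above both DMSO libraries, and together they held 150 and 120 reads in NEDD8i libraries against 42 and 36 in DMSO libraries.

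The stretches just before the starts of C1qb, C1qc and Cd207 are shown because these are neighbours or lead genes whose reads were higher in both NEDD8i libraries. They are the 250 bases before the start in RefSeq on GRCm38.p6, chr4:136886201-136886450, chr4:136892915-136893164 and chr6:83677858-83678107, all on the minus strand; this build is not the one of the gene coordinates above. Capitals mark AGGAAGT or its reverse complement, a form of the site of ETS family factors such as PU.1, and TGACTCA or its reverse complement, the site of AP-1 factors.
C1qb: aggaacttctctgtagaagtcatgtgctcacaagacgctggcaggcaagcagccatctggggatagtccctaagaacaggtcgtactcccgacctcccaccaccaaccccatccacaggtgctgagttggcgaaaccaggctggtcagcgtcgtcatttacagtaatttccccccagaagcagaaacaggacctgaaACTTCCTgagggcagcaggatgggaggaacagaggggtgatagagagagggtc
C1qc: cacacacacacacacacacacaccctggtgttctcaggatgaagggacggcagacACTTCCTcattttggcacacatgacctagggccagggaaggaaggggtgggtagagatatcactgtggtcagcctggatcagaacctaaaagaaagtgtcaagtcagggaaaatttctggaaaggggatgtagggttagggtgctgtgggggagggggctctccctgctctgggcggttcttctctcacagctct
Cd207: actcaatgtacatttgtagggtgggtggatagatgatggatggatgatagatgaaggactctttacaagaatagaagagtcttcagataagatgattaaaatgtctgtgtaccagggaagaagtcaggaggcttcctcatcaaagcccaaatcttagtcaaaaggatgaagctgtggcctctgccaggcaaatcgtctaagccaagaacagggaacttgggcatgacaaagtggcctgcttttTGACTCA
Of the 35 genes 23 had such stretches, 25 in all. On either strand AGGAAGT was in 11 of the 25, which belong to 9 genes, and in 7.69% of the 32851 stretches of all genes. The 9 were C1qb, C1qc, Lyz2, Mrc1, Cd247, Cd3d, Cd3e, Lck and Ptprc. Among those tested, C1qc and Mrc1 had positive log2 fold changes, and Cd247, Cd3d, Cd3e and Ptprc negative ones. TGACTCA was in 4 of the 25 and 4.46% of all. These 4 belong to Cd207, Cd68, Gzmb and Itgax. Cd207 and Cd68 had positive log2 fold changes, Itgax had a negative one, and Gzmb had 0 reads in every library. Another 3 strings that overlap AGGAAGT were searched as well. GAGGAAGT was in 1 of the 25 and 2.44% of all, GAGGAAG in 5 and 10.6%, and GGAAGTG in 6 and 8.55%. These matches describe the letters only, and the motifs were chosen with the members known.

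Mrc1, the mannose receptor of dermal macrophages, had 20 and 24 reads in NEDD8i libraries and 6 and 8 reads in DMSO libraries, a log2 fold change of 1.23 (SE 0.69; adjusted p = 0.424 by edgeR). Cd68, a lysosomal protein of macrophages, had 39 and 29 reads in NEDD8i libraries against 21 and 16 in DMSO libraries, a log2 fold change of 0.49 (SE 0.52; adjusted p = 0.696 by edgeR). Neither gene overlapped between the groups. Lyz2, the myeloid lysozyme, a close copy of Lyz1, had 12 and 11 reads in NEDD8i libraries and 6 in each DMSO library and was not tested. Adgre1, which encodes the F4/80 antigen of macrophages and Langerhans cells, had 10 and 2 reads in NEDD8i libraries and 32 and 2 reads in DMSO libraries, so DMSO replicate 1 held most of its reads. Cd163, a scavenger receptor of resident dermal macrophages, had 2 and 4 reads in NEDD8i libraries and 0 and 2 in DMSO libraries.

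All 4 tested macrophage markers had a positive log2 fold change, with a median of 1.0, and 0 passed. Adgre1, which did not pass the filter, went the other way in mean CPM. It had 0.741 CPM in NEDD8i skin and 2.47 in DMSO skin, and overlapped between the groups. Summed over the 8 genes, CPM was 28.9 and 22.8 in NEDD8i libraries and 15.3 and 12.7 in DMSO libraries, a log2 ratio of 0.89, which stayed between 0.71 and 1.05 when any 1 library was left out. C1qa alone supplied more than any other gene of these sums. It held 125 of 233 and 99 of 190 reads in NEDD8i libraries, against 35 of 107 and 30 of 70 in DMSO libraries. The ratio was not taken without C1qa, so it does not show a shift across the class. Of the 4 fibroblast genes tested 0 passed, and 3 of them, all collagens, were higher in both NEDD8i libraries; Col1a2 had 53 and 138 reads in NEDD8i libraries and 14 in each DMSO library. The sums of all 6 fibroblast genes given above overlapped between the groups, and Dcn alone held 345 reads in DMSO replicate 1; their part in the macrophage values was not tested.

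**Figure D4:**
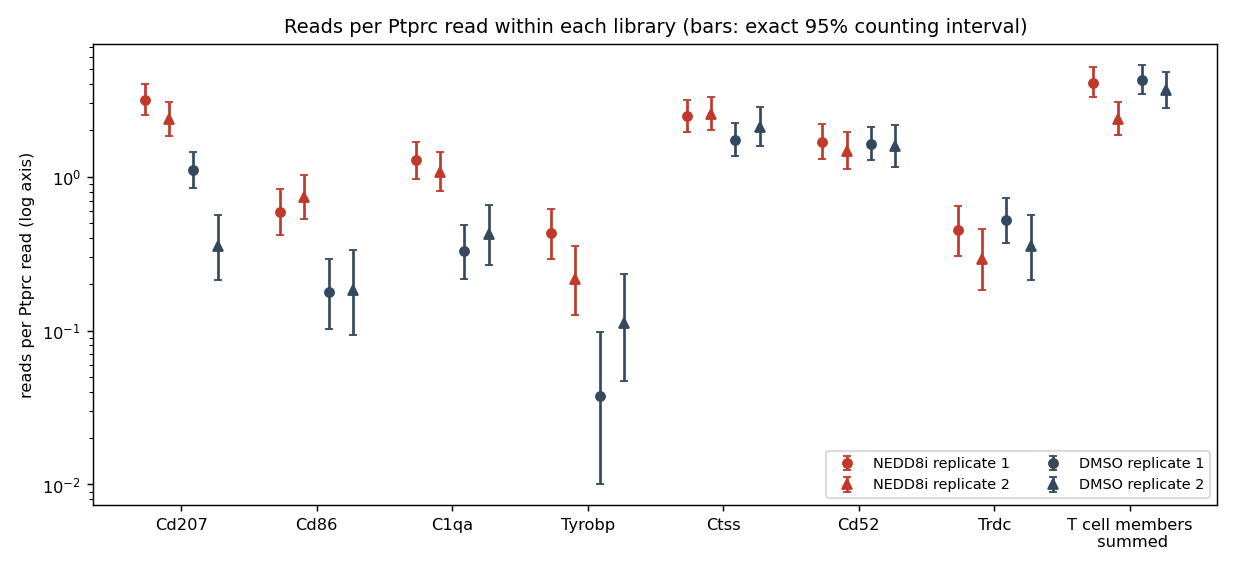
Reads of each gene, or of the 13 T cell markers summed, per read of Ptprc in the same library, on a log axis, with exact 95% counting intervals; red symbols are NEDD8i and dark symbols DMSO. Cd207, Cd86, C1qa, Tyrobp and Ctss lie higher in both NEDD8i libraries, for Tyrobp and Ctss with intervals that overlap between the groups. Cd52, Trdc and the T cell sum overlap.

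A ratio of reads within a library does not depend on how libraries are scaled. It was taken for a few genes only. Among them, Cd207, Cd86, C1qa and Tyrobp were the 4 members with an unadjusted p under 0.05 by edgeR. Itgax, Csf1r and Fcer1g, whose log2 fold changes were negative, were not included, so the ratios do not describe the myeloid markers as a set. Per read of Ptprc there were 3.16 and 2.36 reads of Cd207 in NEDD8i replicates 1 and 2, against 1.11 and 0.352 in DMSO replicates 1 and 2. The exact 95% counting intervals of Cd207 were 2.51 to 4.01 and 1.84 to 3.04 in NEDD8i libraries, and 0.849 to 1.46 and 0.214 to 0.562 in DMSO libraries. C1qa gave 1.28 and 1.08 reads per Ptprc read in NEDD8i libraries and 0.327 and 0.423 in DMSO libraries, and Cd86 gave 0.592 and 0.739 in NEDD8i libraries and 0.178 and 0.183 in DMSO libraries. Ctss gave 2.47 and 2.57 in NEDD8i libraries and 1.74 and 2.11 in DMSO libraries, so it too was higher in both NEDD8i libraries, with counting intervals that overlapped between the groups. Cd52 gave 1.68 and 1.48 in NEDD8i libraries and 1.64 and 1.58 in DMSO libraries, and the T cell markers summed gave 4.09 and 2.38 in NEDD8i libraries and 4.27 and 3.65 in DMSO libraries. Ptprc, the denominator, was itself lower in CPM in both NEDD8i libraries, with means of 11.6 in NEDD8i skin and 14.1 in DMSO skin. A lower denominator raises every ratio in NEDD8i libraries. The intervals of Cd207 did not overlap between the groups and those of Cd52 did. These intervals cover counting error and not the spread between animals.

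Mast cell markers were nearly absent. Cpa3, the mast cell carboxypeptidase, had 0 reads in all 4 libraries, and the chymase Mcpt4 had 5 reads in NEDD8i replicate 1 and 0 in the others. Of 13 mast cell genes in all, counting 11 more, 7 had 0 reads in every library, among them the IgE receptor chain Fcer1a and the tryptase Tpsab1. Of the 3 related genes that could be tested 0 passed. Hpgds, the prostaglandin D synthase, had 1062 and 1188 reads in NEDD8i libraries and 243 and 304 in DMSO libraries (log2 fold change 1.61, SE 0.32; adjusted p = 0.0633 by edgeR), and Kit had 24 and 9 reads in NEDD8i libraries against 21 and 8 in DMSO libraries. Hdc, the histidine decarboxylase that makes histamine, had 30 and 13 reads in NEDD8i libraries and 0 in both DMSO libraries (adjusted p = 0.0880 by edgeR). That was about 11-fold higher with the DMSO group again set at 3 counts and the NEDD8i reads taken as they stand. Hdc was named after its values were seen. Reads of Hpgds and Hdc thus stood beside mast cell genes of which 7 were at 0. Ms4a2 had 4 reads in NEDD8i replicate 2 and Tpsb2 had 1 in NEDD8i replicate 1, each with 0 in the others.

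Further T cell genes gave 0 of 11 tested past the threshold among 28, with a median log2 fold change of 0.15. The most abundant, Il7r, the IL-7 receptor chain of lymphocytes, had 682 and 397 reads in NEDD8i libraries and 125 and 144 in DMSO libraries, a log2 fold change of 1.59 (SE 0.37) that missed the threshold (adjusted p = 0.0875 by edgeR). Thy1, a T cell surface glycoprotein that other skin cells also carry, had 116 and 112 reads in NEDD8i libraries and 79 and 126 in DMSO libraries. The gamma chain constant region Trgc1, which has near-identical copies, had 40 and 21 reads in NEDD8i libraries against 58 and 16 in DMSO libraries and was picked with its values known. Il7r therefore stood higher in NEDD8i libraries while the receptor constant regions Trdc, Trgc1 and Trbc2 overlapped. Of the CD3 chains, Cd3d and Cd247 were lower in CPM in both NEDD8i libraries, and Cd3e and Cd3g overlapped.

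Further Langerhans and dendritic genes gave 0 of 11 tested past the threshold among 22, with 8 positive log2 fold changes and a median of 0.33. Cd74, the invariant chain of MHC class II, had 654 and 773 reads in NEDD8i libraries and 316 and 295 in DMSO libraries (log2 fold change 0.82, SE 0.28; adjusted p = 0.196 by edgeR). Epcam, an adhesion molecule of Langerhans cells and also of follicle keratinocytes, had 1233 and 1163 reads in NEDD8i libraries against 685 and 411 in DMSO libraries (log2 fold change 0.76, SE 0.30; adjusted p = 0.246 by edgeR). Both genes were higher in both NEDD8i libraries. The markers Clec9a and Xcr1 of conventional type 1 dendritic cells had 0 reads in all 4 libraries.

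Further macrophage and myeloid genes gave 0 of 9 tested past the threshold among 20, with a median log2 fold change of 0.79. Laptm5, a lysosomal protein of leukocytes, had 276 and 301 reads in NEDD8i libraries and 221 and 180 in DMSO libraries, with a log2 fold change of 0.13 (SE 0.28; adjusted p = 0.862 by edgeR). Of the 9 log2 fold changes 7 were positive and 2 negative. Coro1a was lower in CPM in both NEDD8i libraries, with 22 and 30 reads against 40 and 43 in DMSO libraries. Its log2 fold change was -1.08 (SE 0.47, adjusted p = 0.296 by edgeR). Coro1a and the receptors Ccr2 and Csf2rb, which were both higher, were picked with their values known. Ccr2, the receptor that brings monocytes into tissue, had 15 and 28 reads in NEDD8i libraries and 2 and 1 in DMSO libraries, 11 times as much, with counting alone allowing 3.51 to 55.2 at 95% confidence (adjusted p = 0.129 by edgeR). Csf2rb, the shared receptor chain for GM-CSF, IL-3 and IL-5, which has a close copy, had 192 and 133 reads in NEDD8i libraries against 37 and 34 in DMSO libraries (log2 fold change 1.80, SE 0.38; adjusted p = 0.0703 by edgeR).

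Of 12 neutrophil genes 3 were tested, of which 1 rose and 0 fell, against 0.667% and 0.114% of all tested genes. S100a8, a calgranulin that stressed keratinocytes also make, had 558 and 424 reads in NEDD8i libraries and 110 and 49 reads in DMSO libraries (log2 fold change 2.28, SE 0.37; adjusted p = 0.0347 by edgeR). S100a9, the partner of S100a8, had 388 and 237 reads in NEDD8i libraries and 3 and 31 reads in DMSO libraries (log2 fold change 3.71, SE 1.05; adjusted p = 0.206 by edgeR). Mmp9, a secreted protease, lay the other way, with 10 and 5 reads in NEDD8i libraries and 41 and 13 reads in DMSO libraries (log2 fold change -2.15, SE 0.73; adjusted p = 0.195 by edgeR). The defining neutrophil genes Ly6g, Camp, Ltf, Ngp, Mpo and Elane had 0 reads in all 4 libraries.

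Signals that hold or attract these cells were read from a list of 15 ligands, of which 11 were tested and 0 passed. For CSF1R, Il34, made by keratinocytes, had 136 and 117 reads in NEDD8i libraries against 250 and 226 in DMSO libraries, 15.5 ± 2.0 CPM in NEDD8i skin and 38.3 ± 3.68 CPM in DMSO skin (SD, n = 2 each), which gave a fold change on the log2 scale of -1.31 (SE 0.30; adjusted p = 0.0866 by edgeR). Csf1, the other ligand, had 28 and 18 reads in NEDD8i libraries and 22 and 20 in DMSO libraries. Il34 was thus lower in both NEDD8i libraries while its receptor Csf1r overlapped and the Langerhans marker Cd207 was higher.

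For the T cell receptors the ligands also differed among themselves. Il15, which acts through Il2rb, had 3 and 6 reads in NEDD8i libraries and 20 and 13 in DMSO libraries, a log2 fold change of -2.22 (SE 0.78; adjusted p = 0.205 by edgeR). Skint1, needed in the thymus for the maturation of dendritic epidermal T cells and one of several close copies, had 24 and 15 reads in NEDD8i libraries against 44 and 67 in DMSO libraries (log2 fold change -1.93, SE 0.52; adjusted p = 0.129 by edgeR). Cxcl16, the ligand of Cxcr6, had 236 and 197 reads in NEDD8i libraries and 83 and 43 in DMSO libraries, a log2 fold change of 1.42 (SE 0.35; adjusted p = 0.103 by edgeR). Cdh1, the E-cadherin that Itgae pairs with, had 5296 and 5016 reads in NEDD8i libraries and 3322 and 2831 in DMSO libraries (log2 fold change 0.35, SE 0.30; adjusted p = 0.627 by edgeR). Il15 and Skint1 were lower, and Cxcl16 and Cdh1 higher, in both NEDD8i libraries.

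Chemokines and growth factors made by epidermis completed the list. Ccl20, which attracts Langerhans precursors and type 17 T cells, had 50 and 63 reads in NEDD8i libraries and 21 and 11 in DMSO libraries (log2 fold change 1.45, SE 0.49; adjusted p = 0.191 by edgeR). Ccl27a, a keratinocyte chemokine for skin-homing T cells, had 228 and 143 reads in NEDD8i libraries against 259 and 192 in DMSO libraries (log2 fold change -0.66, SE 0.33; adjusted p = 0.372 by edgeR). Kitl, the ligand of Kit on mast cells and melanocytes, had 368 and 318 reads in NEDD8i libraries and 175 and 51 in DMSO libraries (log2 fold change 1.28, SE 0.44; adjusted p = 0.197 by edgeR). Tgfb1, needed for Langerhans cells to form, had 12 and 28 reads in NEDD8i libraries and 12 and 10 in DMSO libraries, and Tslp, an alarm cytokine of keratinocytes, had 20 and 15 against 1 and 8 in the same order. Apart from Csf1 and Tgfb1, the groups did not overlap in CPM for these 11 ligands, with 5 higher and 4 lower; the shares over all genes were 25% and 22.9%.

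**Figure D5:**
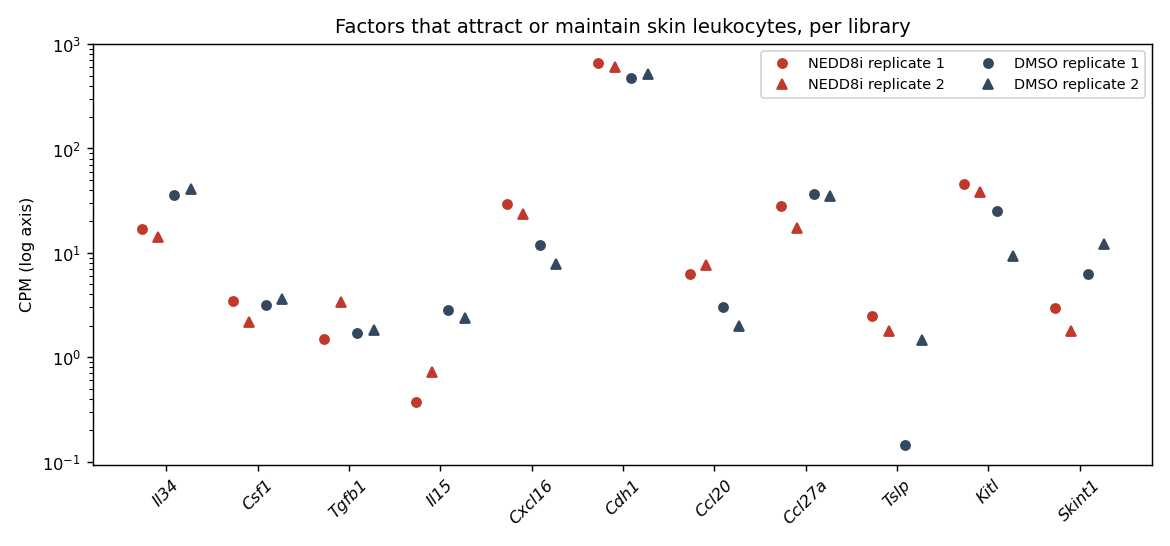
CPM on a log axis of the 11 tested ligands of skin leukocytes in each library, red for NEDD8i and dark for DMSO, circles replicate 1 and triangles replicate 2. Il34, Il15, Ccl27a and Skint1 lie lower in both NEDD8i libraries and Cxcl16, Cdh1, Ccl20, Kitl and Tslp higher, and 0 of the 11 passed an adjusted p of 0.05.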

How the data were processed

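RNA from 4 skin libraries (2 NEDD8i, 2 DMSO) was measured with QuantSeq 3′ FWD kits, per the labels' protocols. The authors deposited raw read counts per gene in 1 table; The submitters' processing notes name STAR, featureCounts and DESeq2; versions, strand setting and multi-mapping rule are not given there. The notes name GRCm38 and GRCm39; only 2.70% of the 52029 identifiers shared with GENCODE M21 (GRCm38) kept their start position there, and coordinates of the table are taken to be GRCm39. Groups and replicate numbers came from sample titles.

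Genes were tested in R 4.3.3 with edgeR 4.0.16 (quasi-likelihood, robust, TMM factors 0.912 to 1.18, filterByExpr with a minimum count of 10 and minimum total of 15) on the counts as deposited, with the group alone in the model and Benjamini-Hochberg adjustment over 11388 genes at 0.05. Over all genes the median SE was 0.42 (log2). Fold changes are NEDD8i over DMSO; log2 CPM used a prior count of 2. SE is the log2 fold change divided by the root of its F value. Alternatives used DESeq2 1.42.0, limma-voom (limma 3.58.1), other scalings and filters, a replicate block and each library left out. No pair of libraries was a duplicate (chi-square over its degrees of freedom 27.5 to 78.4). The steps were tested on simulated data. Intervals and floors cover counting error only.

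The members and lists were chosen with earlier results of these data known. Values were named for members with at least 10 reads, and test values for members past the threshold, the 4 most abundant of each class and the one with the smallest p; related lists gave up to 3 passing or the 2 most abundant genes, and every ligand with at least 10 reads. Further test values, and other genes of the lists, were named after their values were seen. A gene that this rule names is not reported here.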

Additional observations from a re-analysis of the deposited data

How the results depend on the processing

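Between 24 and 33 members could be tested depending on the filter, and with every library kept 0 members were called under library sizes without TMM, RLE factors, DESeq2, limma-voom, removal of the 3 ribosomal RNA genes, the fixed filter (10 counts and CPM above 1 in 2 libraries), the fit without the robust option and the replicate block. With no filter 1 member was higher, Cd207 (adjusted p = 0.00158). Leaving out 1 library gave 0 to 4 members higher and 0 to 2 lower: C1qa, Cd207, Cd86 and Mfge8 were higher without DMSO replicate 1, C1qa and Tyrobp higher and Adgre1 and Cd7 lower without DMSO replicate 2, and 0 were called without either NEDD8i library. Such fits measure no spread in the group left with 1 library, whose lone sample is assumed to vary like the others.

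Over all genes, calls numbered 76 higher and 13 lower, against 223 and 164 with DESeq2, 385 and 318 with no filter, 45 and 3 without the robust option, 179 and 106 with the replicate block, and 38 higher with library sizes without TMM; leaving out 1 library gave 41 to 692 higher and 3 to 712 lower. Library sizes without TMM moved the median log2 fold change of all genes to -0.22. The labels do not say that replicate numbers pair the libraries. Deviations of same-numbered libraries correlated at -0.13 across genes, and the crossed replicate block, added after seeing the data, gave 248 higher and 235 lower genes, 1 member among the higher and 0 among the lower.

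The log2 ratio of summed CPM without TMM was -0.53 for genes of all leukocytes, -0.12 for shared myeloid genes and 0.65 for macrophage genes, against -0.29, 0.12 and 0.89 with it. Leaving out 1 library gave -1.09 to -0.17 for T cell genes and -0.011 to 0.26 for shared myeloid genes. Signs of uncalled members turned when 1 library was left out for Cd3e (-1.34 to 0.15), Cd3g (-0.56 to 0.35), Il2rb (-0.86 to 0.47), Nkg7 (-1.19 to 0.48), Csf1r (-0.58 to 0.31) and Fcer1g (-1.11 to 1.13), and for Ctss without TMM (-0.10); the cause was not tested. Depth limits part of the list, and 11 of 35 markers did not pass the filter. Adgre1, 1 of these, had 46 reads in all, more than the 39 of the tested C1qc, but 32 of them lay in DMSO replicate 1.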
